A study of Mus musculus with 4 samples.

Results

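The extracellular matrix of the spleen was described by the probe sets whose platform annotation gives a single gene symbol for a collagen, a laminin or a tissue inhibitor of metalloproteinases (Timp), or for fibronectin (Fn1), Sparc, decorin (Dcn), biglycan (Bgn), lumican (Lum), elastin (Eln), nidogens (Nid1, Nid2), fibulins (Fbln1, Fbln2) and fibrillin (Fbn1). This symbol rule took 79 of 12422 probe sets, for 53 of 8251 genes with a single symbol, and no probe set carried Fbn1. Total RNA from spleens of female mice was measured on 4 arrays, 2 of Nrf2 knockout mice (nrf2 -/-, KO) and 2 of wild-type littermates (nrf2 +/+, WT), all 5 months old and, per the labels, not yet severely autoimmune. The mice came from intercrosses of heterozygotes whose WT parents were C57B6/SJL and whose KO parents were C57B6/129SVJ, so littermates may also differ in strain segments. Nothing in the labels tells whether RNA of 1 mouse or of a pool was hybridised, and the p-values cover just the spread among these 4 arrays, part of which may be technical. Values in each group are given for replicate 1 and then replicate 2.

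The splenic matrix is made largely by reticular fibroblasts, smooth muscle and endothelium rather than by the lymphocytes that fill the organ. Fibrillar collagens of types I, III and V form the reticular fibres and the capsule, while type IV collagen, laminins and nidogens form the basement membranes of sinuses and vessels. Fibronectin, fibulins, elastin and small proteoglycans fill and organise this scaffold, and Timp proteins hold back the metalloproteinases that degrade it. Nrf2 (gene symbol Nfe2l2) is a transcription factor that induces detoxifying and antioxidant genes through the antioxidant response element.

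The deposited values are probe-set intensities in arbitrary units, and differences are KO minus WT on a log2 scale after values under a floor of 185.5 were raised to it. Of the 79 matrix probe sets, 38, for 32 genes, were bright enough to be tested beside 7415 other probe sets. None passed an adjusted p of 0.05 in limma, where 0.0537% of all 7453 tested probe sets passed. Their adjusted p ranged from 0.992 to 0.998, and none reached an unadjusted p of 0.05, where 1.74% of all tested probe sets did. The 38 probe sets measured higher in KO spleen in 27 cases (53.7% of all tested probe sets did) and lower in 11 (46.3% of all). Their median difference was 0.25, beside 0.04 over all tested probe sets, and single differences lay between -0.58 and 1.08. Both KO values lay above both WT values for 10 of the 38, where 14.3% of all tested probe sets did so, and below both for 2, where 12.2% did. The standard errors ran from 0.38 to 0.85 and every 95% confidence interval included 0, with ends from -2.55 to 2.62, so differences of the size measured here could not be told from the spread between arrays. With any 1 array left out the difference changed sign for 23 of the 38 (60.5%, beside 59.3% of all tested probe sets). With 2 arrays a group the smallest two-sided exact permutation p of a single probe set is 0.333. The intensities by array show where the genotypes separate and where a single array sets a difference.

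**Figure D1:**
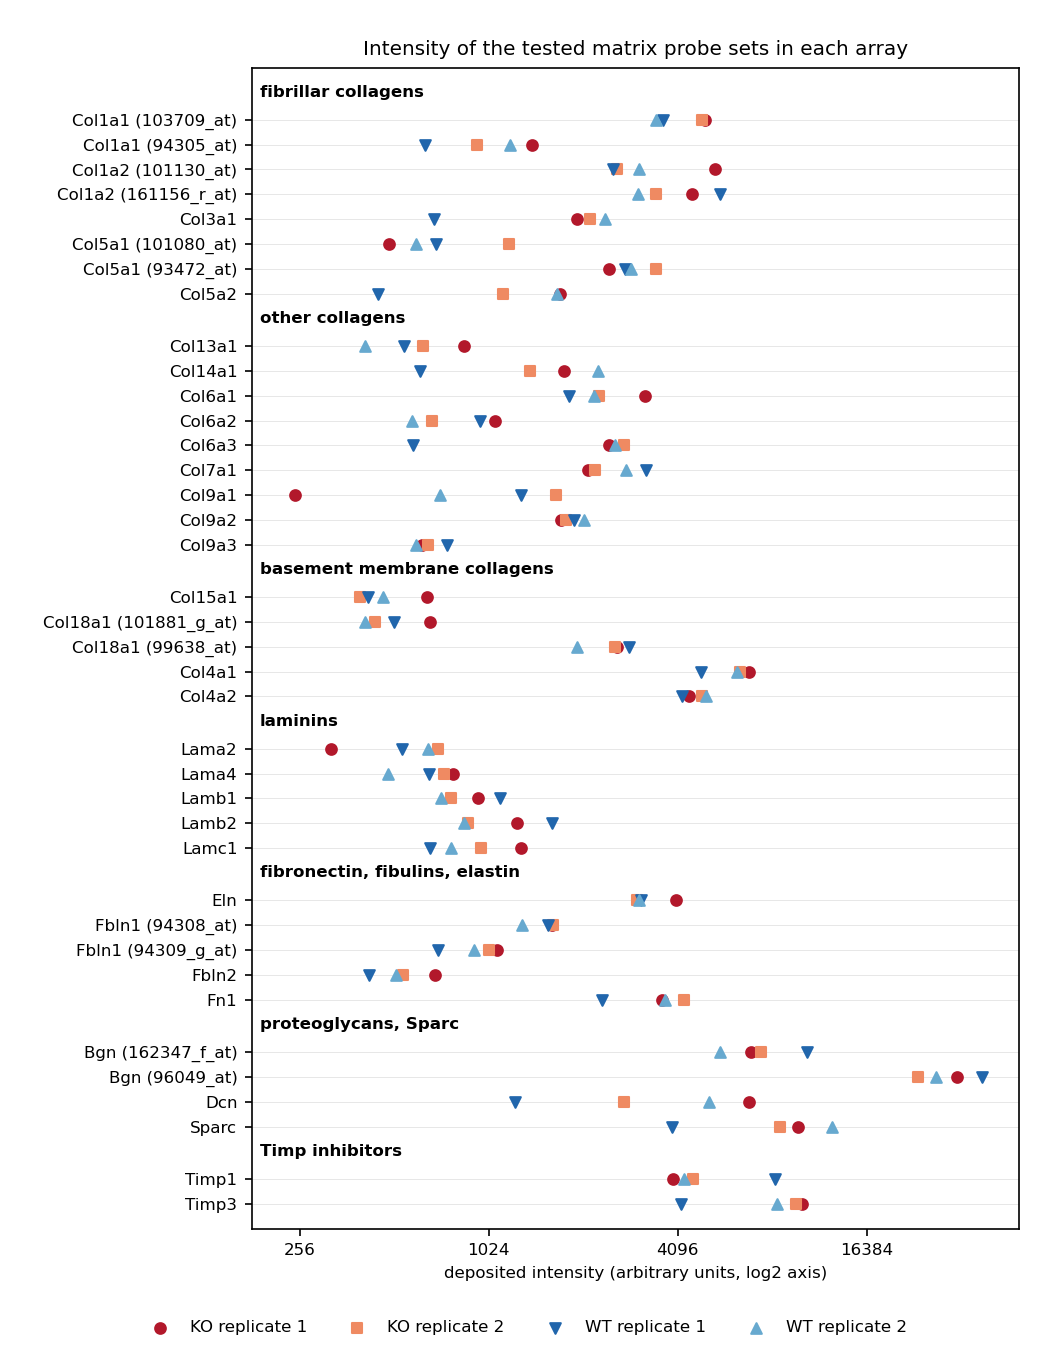
Deposited intensity (arbitrary units, log2 axis) of the 38 tested matrix probe sets, grouped by role, with 1 point for each KO array (red) and each WT array (blue). For most probe sets the 4 points intermix, and in Col6a3, Col3a1, Col5a2, Col14a1, Dcn, Sparc and Timp3 the WT replicate 1 point lies to the left, over 2-fold below the others.

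The arrays were checked first. Nfe2l2 read 202 and 179 in KO spleen, against 3537 and 6321 in WT spleen (difference -4.61 (SE 0.47), limma adjusted p = 0.0199), so the targeted transcript fell in the arrays labelled KO. Whether this probe set lies within the deleted stretch is not given in the labels. Spleen markers were present on all 4 arrays, with summed intensities of 7 B and T cell genes of 124967 to 149799 in KO arrays and 148354 to 294196 in WT arrays, and no member of that list was below the floor on all arrays. WT replicate 1 stood apart, with Pearson's r of 0.805 to 0.882 against the other arrays across the 38 matrix probe sets, while the other 3 arrays correlated with each other at 0.892 to 0.961. The gap was clearer over all 7453 tested probe sets, at 0.849 to 0.851 for WT replicate 1 and 0.938 to 0.947 among the others. The ratio of 3' to 5' signal for Gapdh, which reflects how intact and evenly labelled the RNA was, stood at 25.5 and 34.8 in KO arrays and at 88.3 and 8.07 in WT arrays. The same ratio for beta-actin was 19.3 and 16.1 in KO arrays and 14.4 and 8.86 in WT arrays. The part of these ratios in the results was not tested.

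Because the knockout lacks a factor that binds the antioxidant response element, the start regions of the matrix genes were searched for the core of that element, TGACNNNGC, on both strands. RefSeq windows of 300 bases (250 before to 50 after the start, GRCm38.p6) were found for 35 of the 53 genes, and 6 of these genes held the core (17.1%), beside 14% of all 27025 genes with a window. The matches are shown because they are the places where matrix genes carry the letters of the element, with the core in capitals, 5′ to 3′ on the strand of the gene. In Col13a1 and Timp2 the core reads on the other strand.
Col4a2: ccgggtgcggTGACTCTGCgcagagacct
Col6a2: ccccacccgcTGACCCCGCccatccgcgg
Col7a1: tcttgggaccTGACCTTGCccttaagtgc
Col9a2: gatccgccccTGACCGGGCggagctggac
Col13a1: ggccgcgccgGCTGTGTCAagttacagag
Timp2: ccaatccagcGCGCAGTCAggtacgcagc
They lie at chr8:11312721-11312749, plus strand (Col4a2), chr10:76623458-76623486, minus strand (Col6a2), chr9:108953436-108953464, plus strand (Col7a1), chr4:121039537-121039565, plus strand (Col9a2), chr10:61979089-61979117, minus strand (Col13a1) and chr11:118355545-118355573, minus strand (Timp2). A match is a description of letters and not a binding site. The 5 of these genes that were tested had KO minus WT differences of both signs, 0.02 for Col4a2, 0.19 for Col6a2, -0.47 for Col7a1, -0.16 for Col9a2 and 0.63 for Col13a1. With 1 array left out those of Col4a2 and Col6a2 took both signs (-0.11 to 0.14 and -0.17 to 0.55). Groups did not overlap for Col7a1 and Col9a2, with KO lower (12.2% of all tested probe sets), and for Col13a1, with KO higher (14.3% of all). The whole Col7a1 window (chr9:108953336-108953635, plus strand) is given as an example, picked by its values, of a gene with a core whose groups did not overlap.
Col7a1: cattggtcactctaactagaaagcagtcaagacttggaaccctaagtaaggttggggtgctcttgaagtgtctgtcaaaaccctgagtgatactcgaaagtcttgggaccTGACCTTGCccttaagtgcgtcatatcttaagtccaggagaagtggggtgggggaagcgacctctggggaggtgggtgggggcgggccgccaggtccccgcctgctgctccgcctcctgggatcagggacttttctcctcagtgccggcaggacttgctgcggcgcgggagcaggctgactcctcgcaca
The AP-1 site TGANTCA, which can share its first bases with the core, was found in 1 of the 35 genes, Col6a1 (2.86%, beside 8.97% of all genes with a window). The GC box GGGCGG was found in 22 of the 35 (62.9%, beside 38.2%), the CCAAT box in 13 (37.1%, beside 41.1%) and TATAAA in 5 (14.3%, beside 15.7%), each on either strand.

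Fibrillar collagens measured higher in KO spleen for 7 of 8 tested probe sets, with a median difference of 0.41, and none passed the test. Col1a1, which encodes the main chain of type I collagen, read 4989 and 4891 in KO spleen, against 3679 and 3497 in WT spleen on probe set 103709_at. The KO values both exceeded the WT values there, and the replicates within each genotype were close. The difference was 0.46 (SE 0.38), a 1.38-fold higher level (95% confidence interval -0.42 to 1.34, adjusted p = 0.992), and it ranged only from 0.43 to 0.50 with any 1 array left out. The other Col1a1 probe set, 94305_at, read 1406 and 939.8 in KO spleen, against 640.0 and 1194 in WT spleen, so the genotypes overlapped, and its difference of 0.40 was -0.05 without WT replicate 1.

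Col1a2, the partner chain of type I collagen, was the only one of 6 genes with several tested probe sets whose probe sets disagreed in sign. Probe set 101130_at read 5376 and 2625 in KO spleen, against 2546 and 3084 in WT spleen (difference 0.42), with KO replicate 1 high and the other 3 arrays close together. Probe set 161156_r_at, whose name carries a letter before _at, read 4556 and 3484 in KO spleen, against 5574 and 3067 in WT spleen (difference -0.05), with WT replicate 1 the highest. Col3a1, the type III collagen of reticular fibres, read 1954 and 2147 in KO spleen, against 683 and 2395 in WT spleen. WT replicate 1 was low and WT replicate 2 was the highest of the 4 arrays. The Col3a1 difference of 0.68 (SE 0.60) was therefore -0.23 without WT replicate 1.

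Type V collagen, which nucleates and limits type I fibrils, behaved differently for its chains. Col5a2 read 1721 and 1139.7 in KO spleen, against 453 and 1686 in WT spleen, with the same low WT replicate 1 as Col3a1, and its difference of 0.68 was -0.27 without that array. Col5a1 read 2473 and 3485 in KO spleen, against 2787 and 2912 in WT spleen on probe set 93472_at, with full overlap of the genotypes (difference 0.04 (SE 0.40), 95% confidence interval -0.88 to 0.96). On probe set 101080_at it read 494 and 1188 in KO spleen, against 694 and 600.3 in WT spleen, where the KO arrays themselves lay on both sides of the WT arrays (difference 0.25, -0.39 to 0.88 with 1 array left out). With each array centred on its median the sign of the 93472_at difference turned, to -0.02. The median of the fibrillar group was 0.15 without WT replicate 1 and 0.54 without KO replicate 2.

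Among the collagens that form networks, filaments or fibril surfaces, 5 of 9 tested probe sets measured higher and 4 lower, with a median of 0.19. Col6a3, a chain of the beaded filaments of type VI collagen, had the largest difference of the 38 matrix probe sets. It read 2481 and 2757 in KO spleen, against 587 and 2588 in WT spleen, so 3 arrays were alike and WT replicate 1 was 4.23-fold below the nearest of them. The difference of 1.08 (SE 0.66) was 0.01 without WT replicate 1. For the tested probe sets of the other type VI chains, WT replicate 1 was within 2-fold of the other arrays. Col6a1 read 3229 and 2295 in KO spleen, against 1851 and 2212 in WT spleen, with both KO values above both WT values (difference 0.43, 0.18 to 0.67 with 1 array left out, adjusted p = 0.992). Col6a2 read 1075 and 675 in KO spleen, against 961 and 583 in WT spleen, with replicate 1 the higher array in each genotype (difference 0.19).

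Col7a1, the collagen of the anchoring fibrils under epithelia, read 2128 and 2227 in KO spleen, against 3239 and 2800.3 in WT spleen. Both KO values lay below both WT values, and the difference of -0.47 (SE 0.38) corresponded to a 1.38-fold lower level (95% confidence interval -1.35 to 0.42, adjusted p = 0.992). It ranged from -0.57 to -0.36 with 1 array left out. Col9a2, a chain of the fibril-associated type IX collagen of cartilage, read 1742 and 1804 in KO spleen, against 1919 and 2056 in WT spleen, the only other tested matrix probe set with both KO values below both WT values (difference -0.16). Col9a1, its partner chain, read 247 and 1678 in KO spleen, against 1295 and 718 in WT spleen, and the gap between the KO arrays exceeded the gap between genotypes (difference -0.58 (SE 0.85)). With the floor at the 40th percentile of intensities the Col9a1 difference was -0.11. Col9a3 read 628 and 656 in KO spleen, against 755 and 599.9 in WT spleen, all within a narrow range (difference -0.07, -0.23 to 0.10 with 1 array left out).

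Col13a1, a transmembrane collagen, read 856 and 631 in KO spleen, against 550.3 and 412 in WT spleen on its tested probe set, with both KO values above both WT values (difference 0.63 (SE 0.50), 0.41 to 0.85 with 1 array left out, adjusted p = 0.992). Its other probe set was too dim to test and read 271 and 314 in KO spleen, against 41.2 and 81.1 in WT spleen, in which both WT values lay below the floor. Both names carry a letter before _at, which is f, a mark of possible cross-hybridisation, in the tested probe set and r in the other. Col14a1, which binds the surface of type I fibrils, read 1781 and 1382 in KO spleen, against 617 and 2277 in WT spleen. WT replicate 1 was low and WT replicate 2 high, and the difference of 0.40 was -0.54 without WT replicate 1.

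Basement membrane collagens measured higher in all 5 tested probe sets, by a median of 0.20, with none passing. Col4a1 and Col4a2 encode the chains that form the common type IV network and are read head to head, in opposite directions, from a shared start region. Their RefSeq windows overlap by 78 bases, shown in capitals, and are given because the genes share a promoter and could be compared as a pair. Each is read 5′ to 3′ on the strand of its own gene, Col4a1 at chr8:11312777-11313076, minus strand, and Col4a2 at chr8:11312555-11312854, plus strand (GRCm38.p6).
Col4a1: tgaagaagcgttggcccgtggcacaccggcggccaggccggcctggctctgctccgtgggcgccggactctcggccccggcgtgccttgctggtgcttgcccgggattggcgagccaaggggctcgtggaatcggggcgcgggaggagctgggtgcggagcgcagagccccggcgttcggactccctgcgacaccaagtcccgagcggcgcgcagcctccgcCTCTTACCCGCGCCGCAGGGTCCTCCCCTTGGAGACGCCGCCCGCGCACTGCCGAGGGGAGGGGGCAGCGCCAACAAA
Col4a2: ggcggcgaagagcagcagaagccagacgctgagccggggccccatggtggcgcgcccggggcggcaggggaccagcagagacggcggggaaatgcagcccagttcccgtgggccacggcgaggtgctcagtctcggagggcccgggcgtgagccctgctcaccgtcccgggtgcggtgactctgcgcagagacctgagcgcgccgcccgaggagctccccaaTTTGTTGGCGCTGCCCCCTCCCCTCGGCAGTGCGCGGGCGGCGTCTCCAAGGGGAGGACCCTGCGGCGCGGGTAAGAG
Col4a1 read 6896 and 6476 in KO spleen, against 4866 and 6319 in WT spleen. The genotypes did not overlap, although KO replicate 2 exceeded WT replicate 2 only slightly (difference 0.27 (SE 0.40), 95% confidence interval -0.65 to 1.19, 0.08 to 0.46 with 1 array left out). Col4a2 read 4464 and 4891 in KO spleen, against 4238 and 5037 in WT spleen, and the genotypes overlapped (difference 0.02 (SE 0.39), 95% confidence interval -0.88 to 0.91), with the sign turning to -0.04 when arrays were centred on their medians. WT replicate 1 was the lowest array for both genes of the pair.

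Col18a1, the precursor of endostatin in vascular basement membranes, had 5 probe sets, of which 2 were tested. Probe set 99638_at read 2631 and 2589.8 in KO spleen, against 2859 and 1952 in WT spleen, with the KO arrays nearly equal and between the WT arrays (difference 0.14). Probe set 101881_g_at read 667 and 443 in KO spleen, against 509 and 412 in WT spleen (difference 0.25). Col15a1, the related collagen of microvessels, read 653 and 399 in KO spleen, against 421 and 469.9 in WT spleen (difference 0.20). Neither gene separated the genotypes, and with 1 array left out all 3 differences took both signs, at -0.13 to 0.42 and -0.05 to 0.54 for Col18a1 and -0.16 to 0.55 for Col15a1. Col4a3 and Col4a4, whose chains form the type IV network of the kidney glomerulus, were below the floor on all 4 arrays.

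Laminins, the cross-shaped trimers that nucleate basement membranes, were split, with 2 of 5 tested probe sets higher in KO spleen, 3 lower and a median of -0.06. Lamc1, the gamma chain of most laminins, read 1295 and 967 in KO spleen, against 664 and 773 in WT spleen. The genotypes did not overlap, with KO higher, and the difference was 0.64 (SE 0.44), a 1.56-fold higher level (95% confidence interval -0.37 to 1.66, adjusted p = 0.992). It ranged from 0.43 to 0.85 with 1 array left out. This probe set carries a cross-hybridisation mark, and the other Lamc1 probe set was below the floor on all 4 arrays.

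Lama4, the alpha chain of vascular laminins, read 785 and 734 in KO spleen, against 659 and 488 in WT spleen, again with both KO values above both WT values (difference 0.42 (SE 0.47), 0.20 to 0.64 with 1 array left out). Its second probe set, too dim to test, read 273 and 185 in KO spleen, against 87.1 and 73 in WT spleen, where only KO replicate 1 was above the floor. Lama2, the alpha chain known from muscle, read 321 and 703 in KO spleen, against 539.6 and 656 in WT spleen, with KO replicate 1 low (difference -0.33, and -0.04 with the floor at the 40th percentile). The tested beta chains, Lamb1 and Lamb2, had the same order of arrays as each other. Lamb1 read 948 and 778 in KO spleen, against 1114 and 718 in WT spleen, and Lamb2 read 1263 and 881 in KO spleen, against 1626 and 850.3 in WT spleen (differences -0.06 and -0.16). WT replicate 1 was highest and WT replicate 2 lowest for both, and without WT replicate 1 the differences were 0.26 and 0.31. Nid1, a linker between laminin and type IV collagen, read 206 and 313 in KO spleen, against 233 and 229 in WT spleen, and Nid2 read 44.8 and 62.5 in KO spleen, against 11.9 and 219.6 in WT spleen, both too dim to test and, for Nid2, under the floor on 3 of the 4 arrays.

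Fibronectin, fibulins and elastin measured higher in all 5 tested probe sets, by a median of 0.39, and none passed. Fn1, the adhesive glycoprotein that seeds matrix assembly, read 3638 and 4279 in KO spleen, against 2353 and 3724 in WT spleen, so KO replicate 1 lay within the WT range (difference 0.41 (SE 0.42), 95% confidence interval -0.55 to 1.38). Without WT replicate 1 the Fn1 difference was 0.08. Fbln1, which binds fibronectin and laminin, read 1627 and 1642 in KO spleen, against 1585 and 1305 in WT spleen on probe set 94308_at. On 94309_g_at it read 1089 and 1024 in KO spleen, against 706 and 919 in WT spleen. Both KO values lay above both WT values on each of these Fbln1 probe sets, with differences of 0.18 and 0.39 that ran from 0.04 to 0.32 and from 0.20 to 0.58 with 1 array left out. Fbln2, a fibulin of basement membranes and elastic fibres, read 691 and 547 in KO spleen, against 424 and 518 in WT spleen and likewise did not overlap (difference 0.39 (SE 0.50), 0.22 to 0.56 with 1 array left out, adjusted p = 0.992). Eln, the core of elastic fibres, read 4047 and 3036 in KO spleen, against 3139.9 and 3087 in WT spleen, and only KO replicate 1 stood above the rest (difference 0.17, -0.04 to 0.38 with 1 array left out).

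Small leucine-rich proteoglycans and Sparc gave 2 higher and 2 lower probe sets, with a median of 0.15. Dcn, which coats collagen fibrils and binds growth factors, read 6901 and 2761 in KO spleen, against 1237 and 5150.1 in WT spleen. KO replicate 1 was highest and WT replicate 1 lowest, so each genotype spanned a wide range (difference 0.79 (SE 0.72), 95% confidence interval -0.88 to 2.46). Sparc, a collagen-binding glycoprotein, read 9886 and 8673 in KO spleen, against 3943 and 12674 in WT spleen, with the KO arrays between the WT arrays. Without WT replicate 1 the difference was -0.24 for Dcn and -0.45 for Sparc, against 0.79 and 0.39 with all arrays. Bgn, the relative of decorin, went the other way in that WT replicate 1 was its highest array. It read 31933 and 23957 in KO spleen, against 38109 and 27347 in WT spleen on probe set 96049_at and 6992 and 7561 in KO spleen, against 10596 and 5577 in WT spleen on 162347_f_at (differences -0.22 and -0.08). Lum, a proteoglycan that spaces collagen fibrils, was too dim to test and read 317 and 316 in KO spleen, against 263 and 456 in WT spleen.

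The tested Timp genes, Timp1 and Timp3, had differences of opposite sign, and neither passed. Timp3, the inhibitor that stays bound to the matrix, read 10238 and 9765 in KO spleen, against 4189.5 and 8467 in WT spleen, with both KO values above both WT values (difference 0.75 (SE 0.46), a 1.68-fold higher level, 95% confidence interval -0.33 to 1.82, adjusted p = 0.992). Timp1, a secreted inhibitor that is inducible in inflammation, read 3946 and 4576 in KO spleen, against 8357 and 4305 in WT spleen, and WT replicate 1 alone was high. Its difference of -0.50 (SE 0.46) was -0.02 without that array, while that of Timp3 was 0.24. Timp2, a secreted inhibitor that also takes part in activating a gelatinase, had 3 probe sets, none bright enough to test. Probe set 160116_at read 406 and 342 in KO spleen, against 234 and 104 in WT spleen, with no overlap of the genotypes, and 93507_at read 558 and 219 in KO spleen, against 346 and 447 in WT spleen, with overlap. The last, 161515_i_at, lay under the floor on all 4 arrays.

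**Figure D2:**
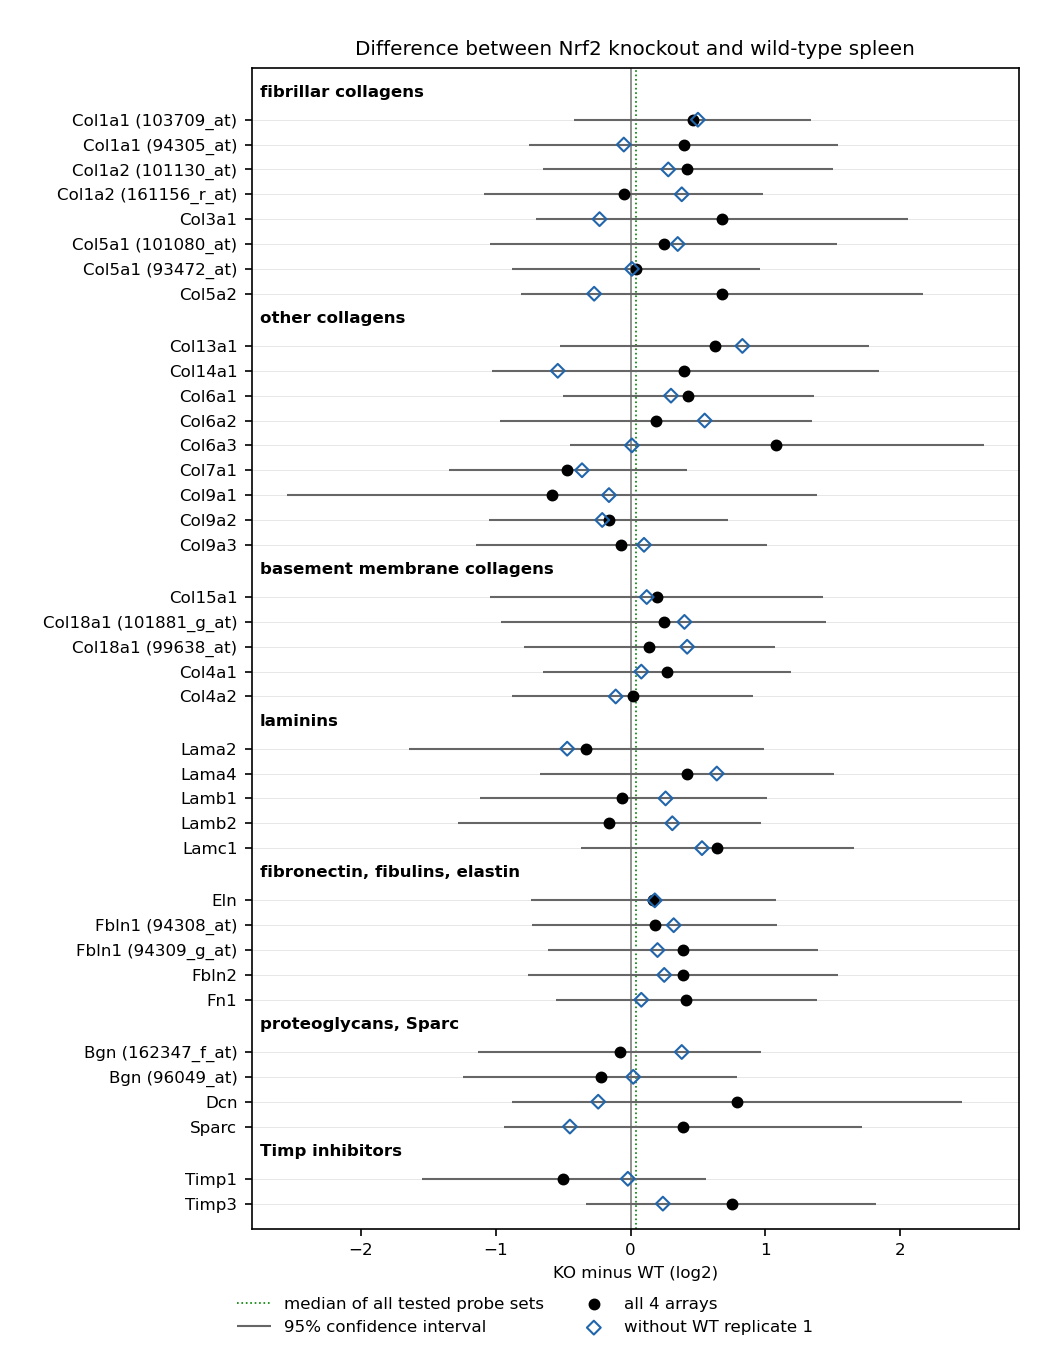
KO minus WT difference (log2) of each tested matrix probe set, with all 4 arrays (black points), its 95% confidence interval (grey lines), the difference without WT replicate 1 (open blue diamonds) and the median of all tested probe sets (green dotted line, 0.04). Every interval spans 0, and the diamonds of Col6a3, Col3a1, Col5a2, Col14a1, Dcn and Sparc lie well to the left of their points.

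Some matrix transcripts, like many other tested probe sets, were more than 2-fold lower in WT replicate 1 than in the KO arrays and in WT replicate 2. In 7 of the 38 probe sets (18.4%, where 11.8% of all tested probe sets did so) WT replicate 1 lay more than 2-fold below all other arrays, and in none was it 2-fold above them (3.61% of all). These were Col6a3, Col3a1, Col5a2, Col14a1, Dcn, Sparc and Timp3, by factors of 4.23 for Col6a3 down to 2.02 for Timp3 against the nearest array. The 7 were picked for this. A large difference against WT replicate 1 alone, and a smaller one without that array, therefore follow from the choice. With the KO arrays set against WT replicate 1 alone, their differences ran from 1.23 to 2.16. In that comparison 8 of the 38 had an unadjusted p under 0.05, where 29.4% of all tested probe sets did. Without WT replicate 1 the differences of the 7 ran from -0.54 to 0.24, and 6 of the 7 lay at or below 0.01. The other 31 matrix probe sets, left over by that choice, had a median difference of 0.18 with all arrays and 0.25 without WT replicate 1. Over all 38, the median was 0.15 without WT replicate 1, with 26 measuring higher (51% of all tested probe sets then did). The count measuring higher was 24 without KO replicate 1 (55.1% of all), 27 without KO replicate 2 (54.4%) and 25 without WT replicate 2 (50.6%). WT replicate 1 was the lowest of the 4 arrays in 16 of the 38 (42.1%, beside 39.2% of all) and the highest in 9 (23.7%, beside 37.3%). With 3 arrays instead of 4, groups separate more easily by construction. Non-overlapping groups with KO higher then numbered 16 without KO replicate 1 (29.5% of all), 18 without KO replicate 2 (27.9%), 18 without WT replicate 1 (31.9%) and 20 without WT replicate 2 (42.8%). Those with KO lower numbered 5 without KO replicate 1 (25.9%), 7 without KO replicate 2 (25.8%), 6 without WT replicate 1 (28.9%) and 10 without WT replicate 2 (40.1%).

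Markers of matrix-producing cells were set beside these values. In bulk RNA fewer cells of a type and less RNA per cell cannot be told apart. Of 12 listed reticular and fibroblast markers 10 were measured and 6 tested, 4 higher and 2 lower in KO spleen (median 0.37), with summed intensities of 67048 and 73704 in KO arrays and 50038 and 77176 in WT arrays. The growth factor receptor gene Pdgfra read 6568 and 5318 in KO spleen, against 1924 and 4808 in WT spleen, so its low array was also WT replicate 1, and the adhesion gene Madcam1 read 4966 and 2898 in KO spleen, against 9039.5 and 5645 in WT spleen, so its high array was WT replicate 1. The median of the list was -0.18 without WT replicate 1. Smooth muscle markers, 6 of 7 tested, measured lower in 5 cases and higher in 1 (median -0.28, sums 20102 and 25326 in KO arrays and 27943 and 28099 in WT arrays). Their top genes by p, Tagln, an actin-binding protein gene, and Myl9, a myosin light chain gene, differed by -0.42 and -0.41, and by -0.48 and 0.12 without WT replicate 1. Endothelial markers, 7 of 9 tested, measured higher in 6 cases and lower in 1 (median 0.36, sums 38315 and 37337 in KO arrays and 63048 and 28857 in WT arrays), among them the cadherin gene Cdh5 at 0.45 and the angiopoietin receptor gene Tek at 0.62. Without WT replicate 2 the endothelial median was -0.07, with 3 of 7 higher, and without WT replicate 1 it was 0.23, with Cdh5 at 0.23 and Tek at -0.10. No member of these 3 lists was below the floor on all arrays, no tested member passed, and their part in the matrix values was not tested.

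Other cell types that a spleen sample could hold were set beside the matrix values too. Exocrine pancreas genes, 9 of 16 tested, measured lower in 7 cases and higher in 2, Pnliprp2 at 0.30 and Clps at 0.08 (median -1.65). They summed to 10722 and 11905 in KO arrays and to 83751 and 22392 in WT arrays. The sum was thus highest in WT replicate 1, the array with low Col6a3, Col3a1 and Dcn, while Reg1 was slightly higher in WT replicate 2. Their part in the matrix values was not tested. The trypsinogen gene Prss2 differed by -4.28 and the lipase-related gene Pnliprp1 by -3.19 with adjusted p of 0.303 and 0.764. Genes of platelets and megakaryocytes, cells that also hold Sparc and Timp transcripts, were tested for 6 of 9 and all measured higher (median 0.51, sums 33266 and 29670 in KO arrays and 32446 and 15665 in WT arrays), with the platelet adhesion genes Selp at 2.30 and Gp5 at 2.65 (adjusted p = 0.493 for each). Adipose markers, 2 of 6 tested, measured higher (median 0.43, sums 4148 and 3544 in KO arrays and 3682 and 3448 in WT arrays). The untested Adipoq went the other way, at 374 and 230 in KO spleen, against 677 and 799 in WT spleen. Retn, also untested, was above the floor only in WT replicate 2. Of 3 mesothelial and epithelial markers tested of 8, 2 measured higher (median 0.30, sums 2944 and 3452 in KO arrays and 3695 and 3426 in WT arrays). The untested Krt7 was lower in KO spleen, at 137 and 340, against 498 and 402 in WT spleen. Krt8 and Krt19 were also lower there, with both KO values under the floor, while Krt18 and Msln overlapped between genotypes. Macrophage markers, 5 tested of 6 measured, gave 3 higher and 2 lower (median 0.29, sums 63303 and 68152 in KO arrays and 52800 and 65662 in WT arrays). Marco and Adgre1 differed by -0.80 and 1.68, and by -0.40 and -0.47 without WT replicate 1. Adgre1 read 2350 and 2964 in KO spleen, against 124 and 3644 in WT spleen, so WT replicate 1 was under the floor. Single arrays set several of these medians, in that the macrophage median was -0.24 without WT replicate 1 and the mesothelial and epithelial median -0.02 without WT replicate 2. The platelet median was 1.21 without WT replicate 1 and 0.17, with 3 of 6 higher, without WT replicate 2. The 7 B and T cell markers tested all measured lower in KO spleen (median -0.54, and -0.24 with 2 of 7 higher without WT replicate 1).

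**Figure D3:**
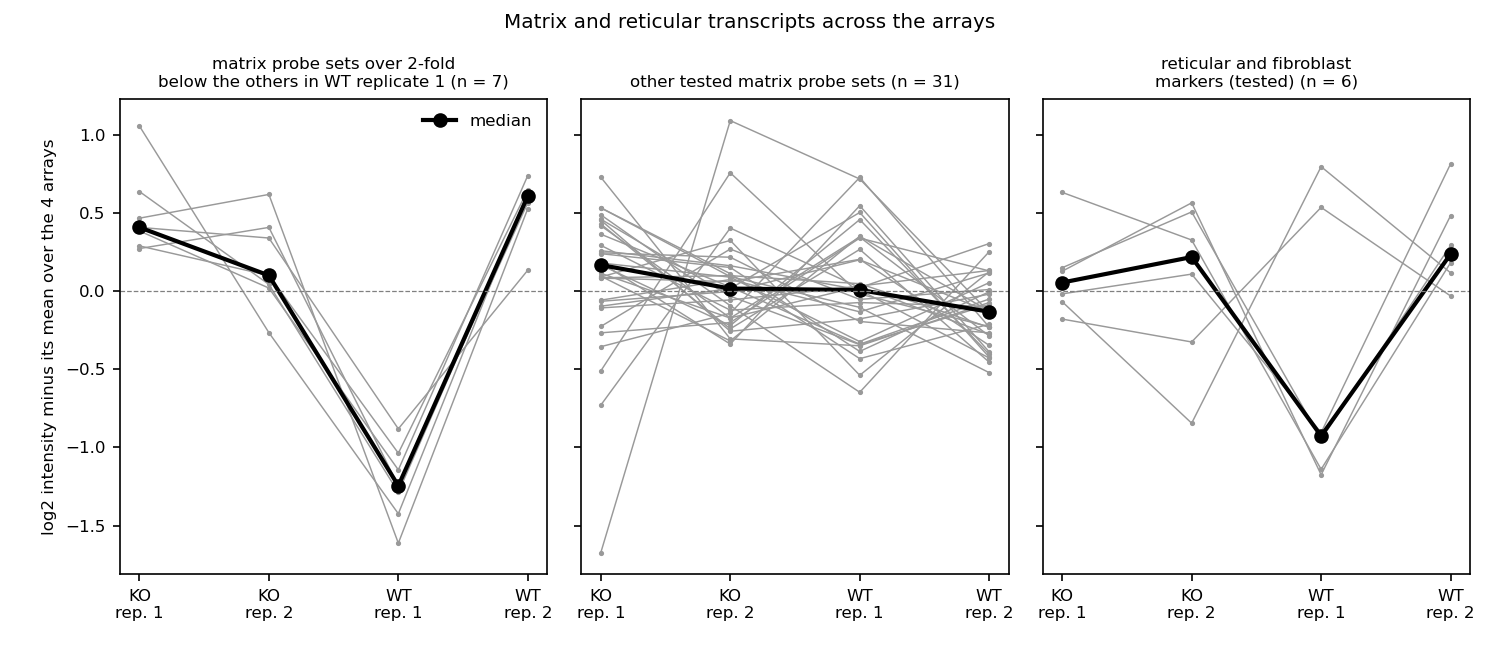
Log2 intensity of each probe set minus its mean over the 4 arrays (y axis) in the 2 KO arrays and the 2 WT arrays (x axis), for the 7 matrix probe sets over 2-fold below the other arrays in WT replicate 1, the other 31 tested matrix probe sets, and the 6 tested reticular and fibroblast markers. Grey lines are probe sets and the black line is their median. The 7 were picked for their low WT replicate 1 value. That array was also the lowest for 4 of the 6 markers (39.2% of all tested probe sets), and the highest for Madcam1 and Thy1 (37.3% of all).

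Genes that build, cut or sense the matrix showed no member past the threshold either. Of the collagen modifying and crosslinking enzymes, 9 of 19 were tested, 7 higher and 2 lower (median 0.23). Crtap, a subunit of a collagen prolyl hydroxylase complex, read 3559 and 2503 in KO spleen, against 1895 and 2322 in WT spleen (difference 0.51 (SE 0.41)). Plod3, a lysyl hydroxylase, differed by 0.25 and P4ha2, a prolyl hydroxylase chain, by 0.26, which was 0.00 without WT replicate 2. Of the matrix metalloproteinases 3 of 15 were tested. Mmp9, the gelatinase of neutrophils and macrophages, read 3937 and 4238 in KO spleen, against 1859 and 1311 in WT spleen, with both KO values above both WT values (difference 1.39 (SE 0.40), unadjusted p = 0.00862, adjusted p = 0.992). Mmp12 and Mmp14, a macrophage elastase and a membrane-bound collagenase, differed by 0.31 and -0.13, and by -0.81 and 0.10 without WT replicate 1.

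Other matrix proteins gave 8 higher and 3 lower among 11 tested of 25 (median 0.16). Without KO replicate 1 that median was -0.02, with 5 of 11 higher. Tgfbi, a collagen-binding protein induced by TGF-beta, read 16450.1 and 7907 in KO spleen, against 3237 and 7273 in WT spleen, with KO replicate 1 high and WT replicate 1 low (difference 1.23 (SE 0.55), adjusted p = 0.992). Hspg2, the basement membrane proteoglycan perlecan, read 353 and 898 in KO spleen, against 1613 and 1063 in WT spleen, with both KO values below both WT values and KO replicate 1 lowest (difference -1.22 (SE 0.57), adjusted p = 0.992). Without KO replicate 1 the differences of Tgfbi and Hspg2 were 0.70 and -0.54. Mfap5, a microfibril protein, differed by -0.54 with all arrays. Matrix receptors measured higher in 10 of 11 tested of 19 (median 0.20), and in 7 of 11 without KO replicate 1 (median 0.06, as over all tested probe sets). Among them the syndecan gene Sdc4 read 1775 and 1369 in KO spleen, against 860.1 and 852 in WT spleen, and without WT replicate 1 its difference of 0.86 (SE 0.41) was 0.87. The laminin receptor genes Itga6 and Dag1 differed by 0.89 and 0.62, and by 0.39 and 0.07 without WT replicate 1. TGF-beta and connective tissue growth factors measured higher in all 6 tested of 13 (median 0.22), led by Pdgfa, a mitogen of fibroblasts, at 0.59, with Smad2 and Tgfb1, a transducer and a ligand of TGF-beta signalling, at 0.41 and 0.22. Without WT replicate 1 the differences of Pdgfa, Smad2 and Tgfb1 were 0.48, -0.04 and 0.10. Over all pathway and marker lists, 39 of 88 tested genes changed sign with some array left out (44.3%).

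**Figure D4:**
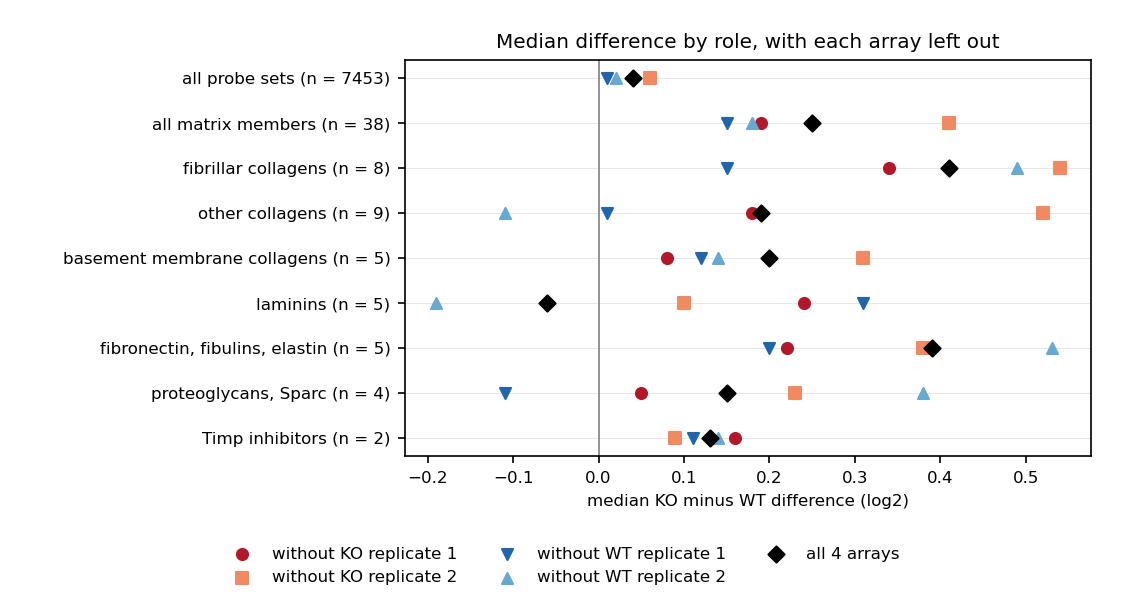
Median KO minus WT difference (log2, x axis) of the tested probe sets in each role group, for all 4 arrays (black diamonds) and with each array left out (coloured symbols). The median of all matrix members runs from 0.15 without WT replicate 1 to 0.41 without KO replicate 2, while that of all tested probe sets stays between 0.01 and 0.06, and laminins, other collagens and proteoglycans take both signs.

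The remaining 41 matrix probe sets were too dim to test, and 21 of the 53 genes had no tested probe set. None of the 41 exceeded 945.6 on any array, and 9 lay below the floor on all 4. The high value belonged to the second Col6a1 probe set, which read 946 and 294 in KO spleen, against 182 and 485 in WT spleen. With values under the floor raised to it, both KO values lay above both WT values for 5 of the 41 (12.2%, beside 7.71% of all 4969 untested probe sets), of Col11a1, Col17a1, Col3a1, Col13a1 and Timp2. They lay below for 3 (7.32%, beside 5.96%), of Col12a1, Lama5 and Col11a2. Col11a1, a minor fibrillar chain of cartilage, read 363 and 228 in KO spleen, against 114 and 121 in WT spleen, and Col17a1, a collagen of epithelial hemidesmosomes, read 445 and 334 in KO spleen, against 305 and 97 in WT spleen. In the other direction Col12a1, a fibril-associated collagen, read 189 and 236 in KO spleen, against 325 and 429 in WT spleen on 1 of its probe sets, and Lama5, a laminin chain of vessel and epithelial basement membranes, read 319.8 and 351 in KO spleen, against 442 and 488 in WT spleen. The second probe sets of Col12a1 and Lama5 overlapped between genotypes, at 226 and 99.6 in KO spleen, against 383 and 223 in WT spleen for Col12a1 and 288 and 528 in KO spleen, against 188 and 768 in WT spleen for Lama5. Col2a1, the fibrillar collagen of cartilage, read 239 and 295 in KO spleen, against 309 and 282 in WT spleen. The 2 remaining Col3a1 probe sets differed from each other as well, with 161984_f_at at 523 and 546 in KO spleen, against 171 and 377 in WT spleen and 102990_at at 229.6 and 145 in KO spleen, against 137 and 176 in WT spleen. WT replicate 1 was the highest array for Lama1, Lamb3 and Col4a5, chains of epithelial and kidney basement membranes. Lama1 read 59.2 and 218 in KO spleen, against 549 and 144 in WT spleen. The brighter readings of Lamb3 were 202 and 119.9 in KO spleen, against 681 and 145 in WT spleen. Col4a5 read 61.1 and 171 in KO spleen, against 385 and 166 in WT spleen, so for all 3 genes most other arrays lay near or under the floor. Col10a1, the collagen of hypertrophic cartilage, went the opposite way, with 322 and 249 in KO spleen, against 26.3 and 309 in WT spleen, and WT replicate 1 was its lowest array. Col8a1, a short-chain collagen of vessel walls, read 310.3 and 298 in KO spleen, against 225 and 419 in WT spleen, and Col26a1, a little-studied collagen, read 393 and 455 in KO spleen, against 510.0 and 389 in WT spleen, with overlap for both. Col11a2, a partner of Col11a1, read 204 and 179.7 in KO spleen, against 227 and 233 in WT spleen, a separation close to the floor. Col19a1, Col22a1 and Lama3 had at most 2 arrays above the floor.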

How the data were processed

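The authors deposited 1-colour probe-set intensities for 12488 probe sets on each of 4 arrays, on a linear scale as their range shows. Which software and scaling made them is not given in the sources used here. After 2% of values were trimmed from each end, means were 2501.5 to 2502 on all 4 arrays, so the values had been brought to a common level. The 66 control probe sets were left out, values under the pooled 25th percentile (185.5) were raised to it, log2 was taken, and the 7453 probe sets with a mean above the 40th percentile were tested. The floor understates differences of dim genes. Of 12422 probe sets, 10833 had a single symbol, 396 several and 1193 none, per the platform annotation, and 10817 matched the reference gene table by identifier. No probe set with several symbols carried a matrix symbol. Genotypes were compared in R 4.3.3 with limma 3.58.1 (lmFit, eBayes with an intensity trend, two-sided, Benjamini-Hochberg over all tested probe sets at 0.05), with no block. The procedure was tested on simulated data. Figures used matplotlib 3.10.9 in Python 3.11.15.

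The members and gene lists were chosen with earlier results of these data known. Named in full were up to 8 tested matrix probe sets in each direction with the smallest p, the 3 genes of highest mean in each role group, genes whose probe sets disagree, and from each other list the genes of smallest p. Probe sets and genes beyond this rule were named after their values were seen. Lists used the probe set of highest mean for each gene. Alternatives covered scaling, floor, pseudocount of 100, filter, variance model, array weights, replicate block and averaged probe sets. Probe sets with any letter before _at in their name, taken as possibly cross-hybridising, and each array were also left out in turn. The number of arrays limits the precision.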

Additional observations from a re-analysis of the deposited data

How the results depend on the processing

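No matrix probe set passed an adjusted p of 0.05 in limma under any of 16 alternatives, and the lowest adjusted p was 0.0583, without WT replicate 2, where 8 of 38 had an unadjusted p under 0.05, as did 29.4% of all tested probe sets. Without the filter 5 of 79 had one, beside 2.73% of all. With 1 array left out the lone array of a genotype is assumed to vary like the others. No label pairs same-numbered KO and WT arrays, whose deviations correlated at 0.0389 over 2 pairs. With the replicate number as a block the count past the threshold stayed at 0, the median difference stayed at 0.25 and 1 had an unadjusted p under 0.05 (4.7% of all), though over all probe sets those past the threshold numbered 36 rather than 4, and from 0 without the filter to 13 without KO replicate 2 under the other alternatives. The median of the matrix probe sets stayed above 0, from 0.04 without the filter on dim probe sets to 0.41 without KO replicate 2, beside 0 and 0.06 over all tested probe sets. The count measuring lower was 11 of 38. It was 6 of 21 with a filter at the 60th percentile, and 11 to 14 with 1 array left out. Without the filter it came out as 37 of 79. This number takes in the 9 probe sets below the floor on all 4 arrays, which do not differ once raised to the floor. Non-overlapping groups were counted on intensities before the floor, so without the filter they include separations under it, such as that of Col4a3. They numbered 16 of 79 higher and 6 lower without the filter (15.1% and 13.1% of all). With the 60th percentile filter 5 of 21 were higher (13.9%), and with probe sets averaged 3 of 22 (14.9%), all with fewer or more members tested. With 1 array left out, where fewer values make a separation easier, they numbered 16 to 20 higher and 5 to 10 lower. The adjusted p of Nfe2l2 was 0.143 without WT replicate 1 and 0.0583 without WT replicate 2, past the threshold in neither, and 1.85e-05 or lower without either KO array.

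Of 415 differences of named probe sets under alternatives, 388 kept their sign, 27 turned it and none passed the threshold. The sign turned for Col4a2 with median centring, quantile and loess scaling (-0.04, -0.04 and -0.05), for Col5a1 with the same (-0.02, -0.02 and -0.03), and with probe sets averaged for Col1a2 (0.18) and Eln (-0.04). With 1 array left out the differences that changed sign ranged from -0.54 to 0.38 and -0.46 to 0.02 (Bgn), -0.13 to 0.42 (Col18a1), -0.09 to 0.94 and -0.48 to 0.38 (Col1a2), -0.23 to 1.59 (Col3a1), -0.11 to 0.14 (Col4a2), -0.20 to 0.29 (Col5a1), -1.96 to 0.80 (Col9a1), -0.24 to 1.82 (Dcn), -0.04 to 0.38 (Eln), -0.89 to 0.24 (Lama2), -0.38 to 0.26 (Lamb1), -0.62 to 0.31 (Lamb2) and -0.45 to 1.23 (Sparc). The cause was not tested. With their sign kept, the 40th percentile floor moved Col9a1 from -0.58 to -0.11 and Lama2 from -0.33 to -0.04, and the other scalings moved differences of Bgn, Col18a1, Col1a2, Eln, Fbln1, Lamb1 and Lamb2 by over 1.5 times, to between -0.26 and 0.12. Leaving out members that encode no matrix protein was not run, since the symbol rule took in none.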
